A study of Mus musculus with 9 samples.

Results

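The genes described here are Trp53, which encodes the tumour suppressor p53, and 9 genes of its pathway: p53 targets, inhibitors of cyclin-dependent kinases (CDKs) and cyclin D1, which drives the G1 phase that these inhibitors hold back. They were taken by gene name from the deposited expression table, which holds 54449 genes after duplicates were removed. All 10 were found, and 9 of them had a mean of at least 5 normalized counts over the 9 libraries and were tested among 13642 genes. Only Cdkn2a was too low to test.

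The study sorted cells labelled as lung eosinophils, white blood cells of type 2 immunity, from C57BL/6 mice, and sequenced RNA pooled from 3 to 4 mice per library. The naive group (n = 3 libraries) came from mice given saline through the tail vein. The iEOS group (n = 3), labelled Siglec-F high, and the rEOS group (n = 3), labelled Siglec-F int, came from mice given PyMT cells, a mouse mammary tumour line, by the same route, so that tumour cells seeded the lung. Siglec-F is a surface receptor of mouse eosinophils. The labels put the purity of the sorted cells above 98% by cytospin and the RNA integrity number above 6.3, and give no ages. A library is a pool, so n counts pools and not mice. Libraries of the PyMT cells themselves were not analysed here.

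p53 is a transcription factor that is kept scarce by Mdm2, a ubiquitin ligase that marks it for degradation. Because p53 also induces Mdm2, the pair forms a negative feedback loop. Under DNA damage or other stress p53 accumulates, largely through protein stability, and induces Cdkn1a, whose product p21 blocks cyclin-dependent kinases, and Bax, which permeabilises mitochondria in apoptosis. The RNA level of Trp53 therefore says little about the activity of its protein. The INK4 inhibitors encoded by Cdkn2a and Cdkn2b block CDK4 and CDK6, the kinases that D-type cyclins such as Ccnd1 activate, and Cdkn2a also encodes p19ARF, which restrains Mdm2. Mature eosinophils have left the cell cycle.

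Several facts about the libraries bear on every comparison below. Total depth ran from 2205949 to 5529406 reads in the naive group, 4941900 to 7171066 in iEOS and 7517513 to 12495639 in rEOS. The genes that define eosinophils were scarce: Siglecf lay between 3.58 and 31.3 normalized counts in all 9 libraries, Ccr3 was at 0 in every naive library, and Epx was at 0 in 2 naive, 2 iEOS and 2 rEOS libraries. Of 11 eosinophil markers 3 were at 0 throughout the naive group, and the summed level of the 11 was 268 to 742 in naive, 518 to 1154 in iEOS and 190.0 to 419 in rEOS. Ear2 had the highest mean of the 11 in each group (309, 409 and 170), and in iEOS library 3 Prg2 was at 380. All 12 pigment cell markers examined were detected in every group, and their sum was 80555 to 85469 in the naive libraries against 542 to 1577 in iEOS and 1047 to 1919 in rEOS. Sums of 12 fibroblast markers were 6875 to 8575, 26152 to 38944 and 10984 to 27276 in the same order, and those of 12 macrophage markers 3130 to 4548, 4564 to 10313 and 8700.1 to 39850, with rEOS library 2 highest. C1qb was the highest macrophage marker in each group, at 27139 in rEOS library 2, while Marco was at 48.0 to 94.0 in all 9 libraries. A sum led by few genes need not give the level of a cell type. Sums of 10 neutrophil markers were 2319 to 3381, 1710 to 3599 and 968 to 1586. Those of 12 epithelial and mammary tumour cell markers were 3855 to 7036, 5032 to 6197 and 2732 to 3559. The part of these cell type markers in the differences from naive was not tested. In such bulk libraries, fewer cells of a type and less RNA per cell cannot be told apart.

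The promoters of 9 of the 10 genes were available as RefSeq sequences on GRCm38.p6, from 250 bases before each start site to 50 bases after it, in 11 windows. A match to the p53 half-site consensus, on either strand, lay in 5 of these 11 windows, compared with 8.36% of 32851 windows of all genes. Counted by gene, 5 of the 9 genes had one (55.6%), compared with 24.0% of 25 other p53 target genes and 9.55% of 27025 genes. The genes with a match were Trp53, Mdm2, Cdkn1a, Ccng1 and Bax, and since the set was chosen for p53 targets, this share is a description of it. The bases upstream of the start site are shown for 3 of them, the p53 feedback inhibitor, the p53-induced CDK inhibitor and the p53-induced death gene. They are written 5′ to 3′ along the gene's own strand, with the half-site in capitals.
Mdm2, chr10:117710759-117711008, minus strand: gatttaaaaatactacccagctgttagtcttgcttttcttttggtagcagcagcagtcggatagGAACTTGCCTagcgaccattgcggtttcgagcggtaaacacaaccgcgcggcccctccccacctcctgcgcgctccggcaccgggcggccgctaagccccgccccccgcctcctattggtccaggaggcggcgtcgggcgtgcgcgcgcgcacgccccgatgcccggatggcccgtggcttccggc
Cdkn1a, upstream start site, chr17:29090729-29090978, plus strand: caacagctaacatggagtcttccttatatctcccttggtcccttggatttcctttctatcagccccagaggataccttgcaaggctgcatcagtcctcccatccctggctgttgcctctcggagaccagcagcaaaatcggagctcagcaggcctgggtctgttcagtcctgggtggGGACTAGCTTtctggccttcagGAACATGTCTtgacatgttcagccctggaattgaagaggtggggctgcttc
Bax, chr7:45466899-45467148, minus strand: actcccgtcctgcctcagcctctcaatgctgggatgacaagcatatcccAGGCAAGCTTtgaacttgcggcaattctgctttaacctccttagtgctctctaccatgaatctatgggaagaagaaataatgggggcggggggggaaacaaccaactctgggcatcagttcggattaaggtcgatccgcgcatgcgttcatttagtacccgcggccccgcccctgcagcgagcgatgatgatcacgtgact
In Mdm2 the half-site GAACTTGCCT starts 186 bases before the start site. The promoter through which p53 is known to induce Mdm2 lies in the first intron and is outside this window. Cdkn1a has GGACTAGCTT at 73 bases and GAACATGTCT at 51 bases before its upstream start site, whereas the window of its second start site, 2790 bases downstream, has no match. The Bax half-site AGGCAAGCTT lies 201 bases upstream. A GC box (GGGCGG, either strand) was found in 8 of the 11 windows, compared with 35.7% of all windows. Neither an E2F site (TTTCGCGC or TTTGGCGC) nor an AP-1 site (TGANTCA) was found in any of the 11, compared with 0.813% and 7.81% of all windows. A match is a description of the letters and not evidence of binding.

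Trp53 itself, on chromosome 11 (GRCm38 chr11:69580359-69591873), was at 492, 776 and 766 normalized counts in the 3 naive libraries, at 267, 430 and 406 in iEOS and at 345, 355 and 408 in rEOS (in library order throughout). The lowest naive library was thus above the highest library of either tumour group. Trp53 fell by 0.88 ± 0.30 (log2, SE) in iEOS, with an adjusted p of 0.0483 from limma's moderated test across all genes, a call at the edge of the 0.05 threshold. In rEOS the difference was -0.85 ± 0.30 (adjusted p = 0.0692) and did not pass. The iEOS call was kept in 7 of 23 alternative analyses and ended in the other 16. It ended with every other scaling tried, TMM (adjusted p = 0.101), equal library totals (0.138) and quantile normalization (0.134), and with edgeR on the recovered reads (0.124). It also ended with no filter, with no variance trend, with the 2 groups alone, after the correction for base composition and transcript length described below, and when naive library 2 (0.121), naive library 3 (0.136) or any of iEOS 1, iEOS 3 and the 3 rEOS libraries was left out. The rEOS difference, for its part, passed in 3 alternatives: without iEOS library 1 (adjusted p = 0.0167), without iEOS 1 and rEOS 2 together (0.0353) and with the 2 groups alone (0.0264).

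Mdm2 (chr10:117688875-117710758) had the lowest adjusted p of the set in both naive comparisons. It was at 213, 245 and 317 normalized counts in naive, 1119, 812 and 774 in iEOS, and 797, 610.1 and 669 in rEOS. Every tumour-group library was above every naive library. Mdm2 rose 3.48-fold in iEOS (log2 1.80 ± 0.28, adjusted p = 0.00176) and 2.69-fold in rEOS (1.43 ± 0.28, adjusted p = 0.00623). Both calls held in all 23 alternatives, with a log2 change from 1.59 to 1.97 in iEOS and from 1.24 to 1.70 in rEOS. The 2 comparisons share the naive libraries, so they are not independent of each other.

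**Figure D1:**
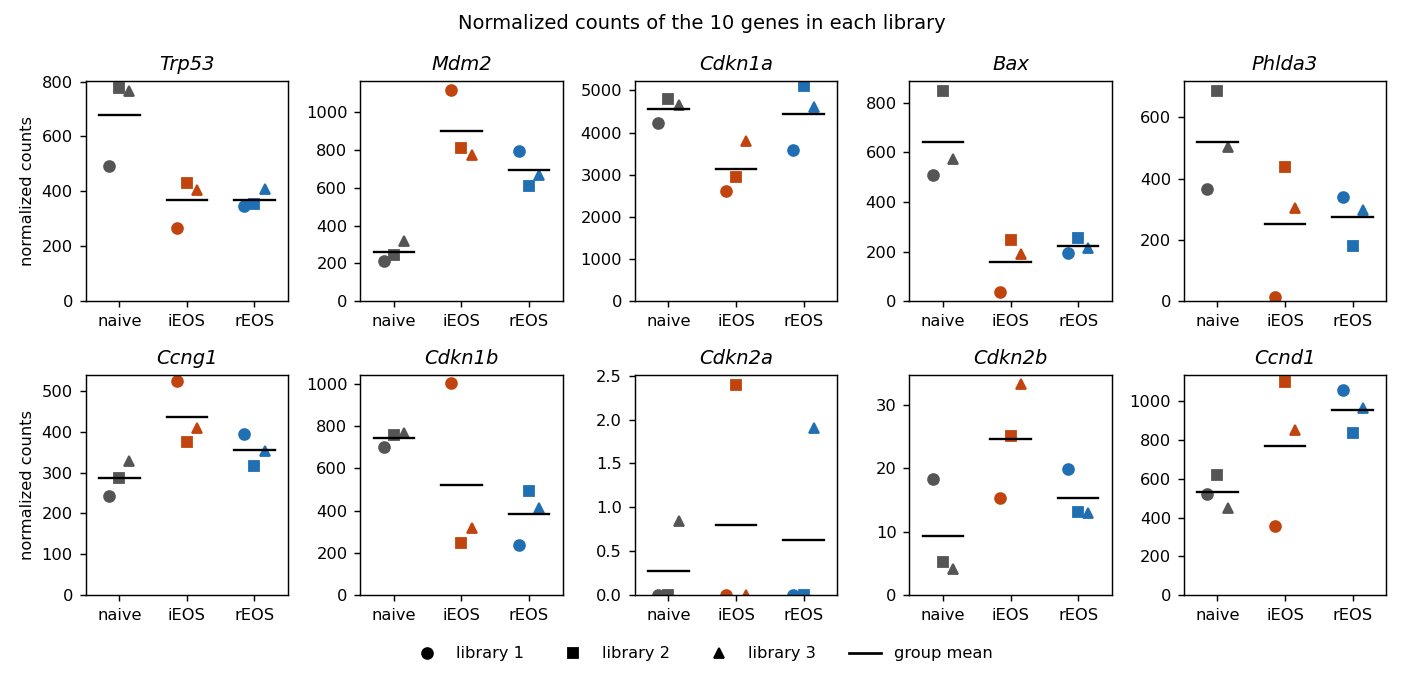
Normalized counts of the 10 genes (vertical axis, from 0, with its own scale for each gene) in the naive, iEOS and rEOS groups. Each point is a library, its shape gives the library number and the line is the mean of 3; Mdm2 is higher in all 6 tumour-group libraries than in the naive ones, Bax and Trp53 lower, and Phlda3 and Cdkn1b have an iEOS library 1 far from its group.

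Of the remaining p53 targets in the set only Bax was called, and only in iEOS. Cdkn1a (chr17:29090976-29100727), the p21 gene, was at 4229.6, 4801 and 4657 normalized counts in naive, 2622, 2954 and 3805 in iEOS and 3589, 5097 and 4606 in rEOS. The 3 iEOS libraries were below the naive ones, and rEOS overlapped both. Neither difference passed: it was -0.56 ± 0.26 in iEOS (adjusted p = 0.119, 95% interval -1.14 to 0.02) and -0.06 ± 0.26 in rEOS (adjusted p = 0.897, interval -0.63 to 0.52), and the rEOS value was above 0 under 3 other scalings. Cdkn1a was not called in any of the 23 alternatives of either comparison. An antisense transcript that shares exonic bases with it was at 0 to 8.77.

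Bax (chr7:45461697-45466898) was lower than naive in the deposited values, where Mdm2 was higher. Bax was at 509, 847 and 573 normalized counts in naive, 36.2, 249 and 192 in iEOS and 195, 254 and 217 in rEOS. No tumour-group library reached the naive range, and iEOS library 1 was far below the others. Bax fell in iEOS, by 2.37 ± 0.60 on the log2 scale (adjusted p = 0.0153), and was -1.50 ± 0.60 in rEOS (adjusted p = 0.0978). Without iEOS library 1 the iEOS change was -1.52 (adjusted p = 0.00446) and the rEOS difference, unchanged in size, passed the test (adjusted p = 0.00196). Without naive library 2 the iEOS call ended (adjusted p = 0.0572). It ended as well after the correction for base composition and transcript length described below (-0.46, adjusted p = 0.201). The rEOS difference was then -0.30 (adjusted p = 0.442).

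Phlda3 (chr1:135766119-135769136), a p53 target whose product inhibits AKT signalling, was at 366, 685 and 504 normalized counts in naive, 14.3, 439 and 305 in iEOS and 339.8, 182 and 299 in rEOS. The naive and rEOS groups did not overlap, while iEOS spanned a wide range because library 1 was at 14.3. Its differences were -1.98 ± 1.00 in iEOS (adjusted p = 0.145) and -0.92 ± 1.00 in rEOS (adjusted p = 0.536). Without iEOS library 1 the first shrank to -0.45, and without iEOS library 2 it grew to -2.88 and passed (adjusted p = 0.0396). The rEOS difference passed without iEOS library 1 (adjusted p = 0.0450). Ccng1 (chr11:40748552-40755311), which encodes the atypical cyclin G1 and is a classical p53 target, was at 242, 287 and 329 in naive, 525, 374 and 410.3 in iEOS and 395, 317 and 354 in rEOS. The iEOS libraries were above the naive ones, but neither the iEOS difference of 0.61 ± 0.28 (adjusted p = 0.114) nor that of rEOS, 0.32 ± 0.28 (adjusted p = 0.433), passed. The iEOS difference of Ccng1 passed in 1 of the 23 alternatives and the rEOS one in 0.

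Among the CDK inhibitors that p53 does not classically induce, Cdkn1b (chr6:134920401-134925513) encodes p27, which holds cells out of the cycle. It was at 702, 758 and 766 normalized counts in naive, 1005, 245 and 316 in iEOS and 238, 495 and 414 in rEOS. All rEOS libraries and iEOS libraries 2 and 3 lay below the naive range, and iEOS library 1 lay above it. The differences were -0.79 ± 0.49 in iEOS (adjusted p = 0.225) and -1.02 ± 0.49 in rEOS (adjusted p = 0.157). Without iEOS library 1, Cdkn1b fell in both, by 1.41 in iEOS (adjusted p = 0.00970) and by 1.02 in rEOS (adjusted p = 0.0181).

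The INK4 locus gave little signal. Cdkn2a and Cdkn2b are neighbours on the minus strand of chromosome 4 (chr4:89274471-89294653 and chr4:89306299-89311039), 11646 bases apart. Cdkn2a, which encodes p16INK4a and p19ARF from 2 start sites, had 1 read in the naive group, 4 in iEOS and 6 in rEOS, and was at 0 in 6 of the 9 libraries. Per 1000000 reads this was 0.0820 in naive (95% Poisson interval 0.00208 to 0.457), 0.232 in iEOS (0.0631 to 0.593) and 0.190 in rEOS (0.0697 to 0.414). The ratio of iEOS to naive was 2.82 with a counting interval from 0.280 to 139, so no difference was detectable at this depth. The Cdkn2a reads of each group came from 1 library (naive 3, iEOS 2 and rEOS 3). These intervals leave out the spread between pools. Cdkn2b, the p15INK4b gene, was at 18.4, 5.21 and 4.18 normalized counts in naive, 15.4, 25.1 and 33.3 in iEOS and 19.9, 13.1 and 13.0 in rEOS, from 23, 95 and 109 reads. The groups overlapped through naive library 1, and the differences of 1.52 ± 0.69 in iEOS (adjusted p = 0.111) and 0.91 ± 0.69 in rEOS (adjusted p = 0.366) did not pass.

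Ccnd1 (chr7:144929931-144939925), cyclin D1, is the partner of CDK4 and CDK6 that growth factors induce. It was at 522, 623 and 451 normalized counts in naive, 358, 1100.1 and 853 in iEOS and 1061, 836 and 965 in rEOS. The rEOS libraries were all above the naive ones, and so were iEOS libraries 2 and 3, but iEOS library 1 was below them. The differences were 0.40 ± 0.39 in iEOS (adjusted p = 0.442) and 0.85 ± 0.39 in rEOS (adjusted p = 0.140). Without iEOS library 1, Ccnd1 rose in both, by 0.88 in iEOS (adjusted p = 0.0206) and by 0.85 in rEOS (adjusted p = 0.0117). Exons of Ccnd1 overlap those of the antisense gene LTO1, which was at 37.9 to 78.2 normalized counts, and how the counting treated strand is not given in the sources used here.

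In all, 3 of the 9 tested genes were called in iEOS against naive, Mdm2 higher and Trp53 and Bax lower, where 31.3% of all tested genes were called (14.7% higher, 16.6% lower). In rEOS against naive 1 of 9 was called, compared with 22.3% of all genes (12.0% higher, 10.3% lower). In this fit of all 9 libraries the share of the set called was near that of all genes in iEOS and below it in rEOS. The rEOS count moved with the libraries in the fit. Without iEOS library 1, 6 of the 9 genes were called in rEOS, beside 5167 of the 13642 tested. With the 2 groups alone, 5 of the 9 were called, beside 4808 of the 13642. Groups did not overlap for 5 of 9 in iEOS (2 higher, 3 lower), compared with 46.4% of all genes (20.2% higher, 26.3% lower), and for 6 of 9 in rEOS (2 higher, 4 lower), compared with 50.9% (23.3% and 27.6%). The median difference of the 9 genes was -0.56 in iEOS and -0.06 in rEOS, beside -0.11 and -0.02 over all tested genes.

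The iEOS and rEOS groups could not be distinguished by any of these genes. All 9 overlapped between them, where 11.3% of all tested genes did not, the largest differences being -1.06 ± 1.00 for Phlda3, -0.87 ± 0.60 for Bax and 0.61 ± 0.69 for Cdkn2b, and their adjusted p-values ran from 0.797 to 0.977. Mdm2 differed by 0.37 ± 0.28, with a 95% interval from -0.25 to 0.99. None of the 9 was called, and 0 had an unadjusted p under 0.05. Over all genes limma and edgeR called 0 (0.00%) and DESeq2 called 6, and 591 genes had an unadjusted p under 0.05 with limma. The intervals are wide, and a p that misses the threshold does not show that the groups are alike.

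The differences from naive followed the base composition of the transcripts. From the decile of tested genes with the lowest GC content to the decile with the highest, the median log2 difference went from 1.31 down to -1.39 in iEOS and from 1.02 down to -0.70 in rEOS. Bax (63.5% GC in its longest transcript) and Phlda3 (62.6%) are beyond the 95th percentile of tested genes (59.3%), while Ccng1 (40.8%), Cdkn1b (43.1%) and Mdm2 (46.2%) lie below the median of 49.3%. The trend was also present within a group: iEOS library 1 differed from the other 2 iEOS libraries by 0.93 in the lowest decile and by -1.83 in the highest, and it also had the highest share of mitochondrial reads (31.1%, compared with 11.5% to 21.2% in the others).

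**Figure D2:**
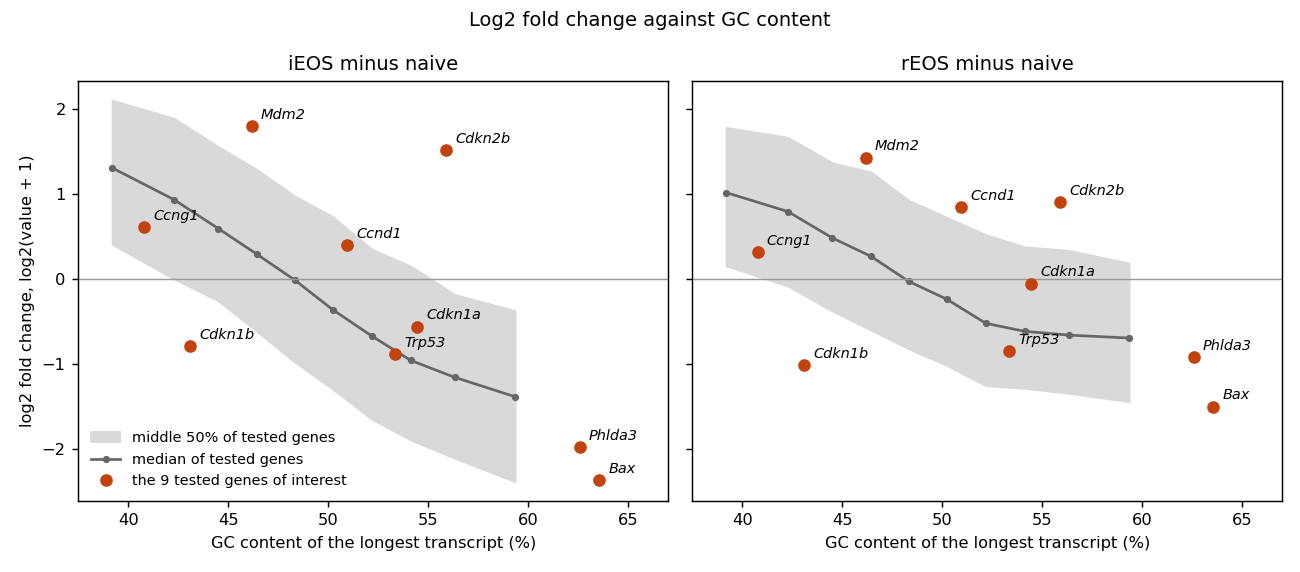
Log2 difference from naive (vertical axis) against GC content in percent (horizontal axis) for iEOS and rEOS. The grey line and band are the median and middle 50% of tested genes in deciles of GC content, and the points are the 9 genes; Trp53 sits on the line in iEOS, Mdm2, Cdkn2b and Ccnd1 lie above it in both panels, and Cdkn1b lies below it.

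Set against genes of like GC content, the 9 genes sorted differently. Trp53, at -0.88 in iEOS, was beside a median of -0.96 for its decile, whereas Mdm2 was above 82.7% of its decile in iEOS and 77.9% in rEOS, and Cdkn1b was above only 11.0% and 8.80%. After each library's dependence on GC content and transcript length was fitted and taken out, a step chosen after seeing the data, Mdm2 stayed higher in iEOS (1.59, adjusted p = 0.00140) and rEOS (1.24, adjusted p = 0.00638). Trp53 moved to 0.046 (adjusted p = 0.918) and Bax to -0.46 (adjusted p = 0.201) in iEOS, so that both calls ended. Cdkn1b was then lower in iEOS (-1.72, adjusted p = 0.0107) and rEOS (-1.78, adjusted p = 0.00983), and Ccnd1 higher (0.90, adjusted p = 0.0483, and 1.18, adjusted p = 0.0168). Cdkn2b was higher in iEOS alone by this test (2.87, adjusted p = 0.0128, against 1.80, adjusted p = 0.0913, in rEOS). With the trend removed, 4 of 9 genes were called in iEOS and 3 of 9 in rEOS, compared with 22.9% and 19.6% of all genes. Cdkn1a (0.67 and 0.71) and Ccng1 (-0.38 and -0.49) changed sign and were not called. The adjustment also takes away any real difference between the groups that goes with GC content.

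**Figure D3:**
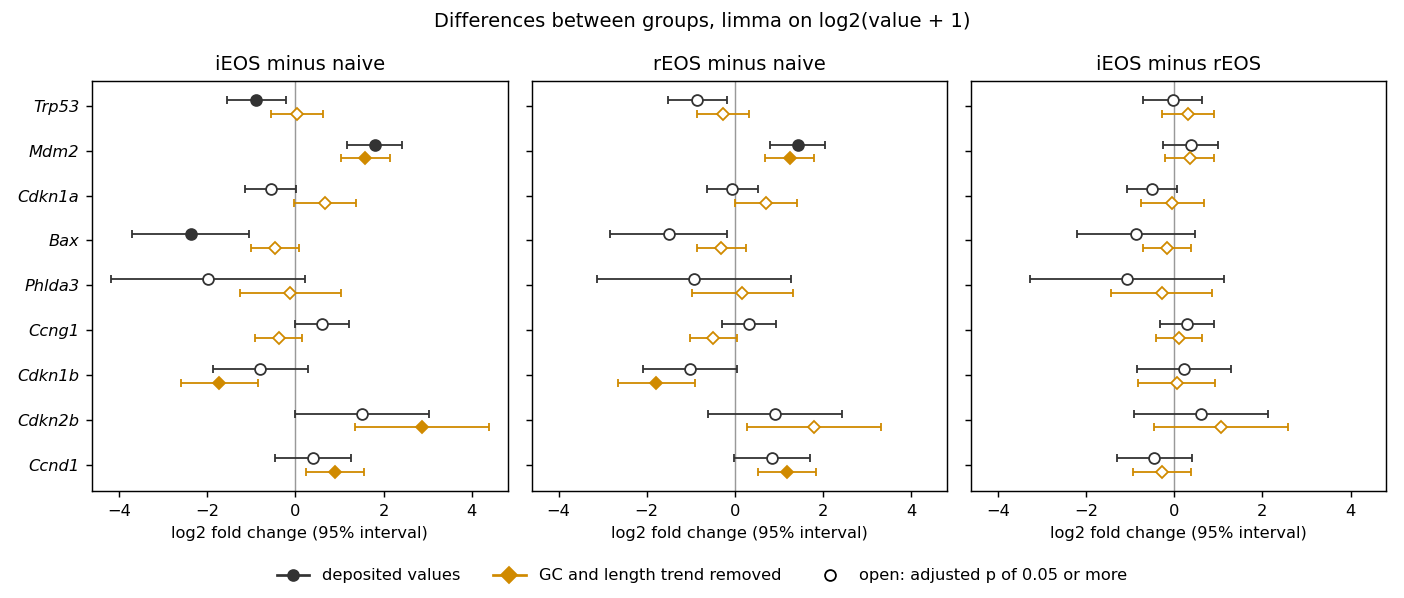
Log2 fold change with its 95% interval (horizontal axis) for the 9 tested genes in the 3 comparisons. Circles are the deposited values and diamonds the values after correction for GC content and length, filled where the adjusted p was under 0.05; Mdm2 is the gene filled in both analyses of both naive comparisons, and no marker is filled between iEOS and rEOS.

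Ratios of these genes within a library do not depend on how the library was scaled. They were chosen after the values had been seen, and with 3 libraries against 3 no exact permutation test can give a two-sided p below 0.1. Mdm2 relative to Trp53 was 0.434, 0.315 and 0.413 in naive, 4.20, 1.89 and 1.91 in iEOS and 2.31, 1.72 and 1.64 in rEOS. All 6 tumour-group libraries were above the 3 naive ones. Mdm2 relative to Bax went from 0.289 to 0.552 in naive to 3.26 to 30.9 in iEOS and 2.40 to 4.08 in rEOS. Cdkn1a relative to Ccnd1 was 7.71 to 10.3 in naive, above the 2.69 to 7.33 of iEOS and the 3.38 to 6.10 of rEOS. Ccnd1 relative to Cdkn1b was 0.589 to 0.821 in naive and 1.69 to 4.45 in rEOS, but 0.356, 4.49 and 2.70 in iEOS, where library 1 again went the other way. Of 14 comparisons of 7 ratios with naive, 12 had no overlap (exact p = 0.1, adjusted 0.117), 5 of 7 in iEOS and 7 of 7 in rEOS. Among all pairs of 10836 tested genes above 0 in every library, 44.9% of ratios did not overlap in iEOS and 49.7% in rEOS, so a ratio without overlap is common in these libraries. The 2 comparisons with overlap were Cdkn1a to Trp53 (exact p = 0.2) and Ccnd1 to Cdkn1b (exact p = 0.4) in iEOS. Ratios of genes that differ in GC content carry the trend described above.

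**Figure D4:**
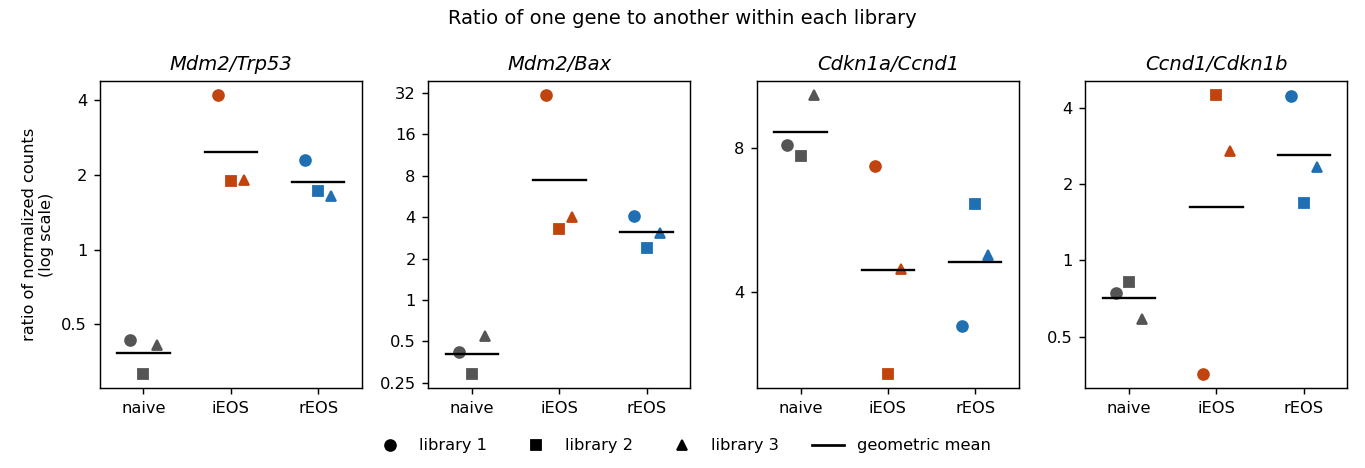
Ratio of 1 gene's normalized counts to another's in each library (log2-scaled vertical axis) for 4 gene pairs in naive, iEOS and rEOS. Points are libraries and lines geometric means; Mdm2/Trp53 and Mdm2/Bax are higher in every tumour-group library than in any naive library.

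Other genes of the p53 pathway also split in direction. Of 33 tested p53 targets outside the set, 8 were higher and 3 lower in iEOS, and 5 were higher and 3 lower in rEOS, with medians of 0.12 and 0.21 beside the -0.11 and -0.02 of all genes. Shares called over all genes are those given above. Btg2, an antiproliferative p53 target, was at 400.3, 432 and 403 normalized counts in naive, 2384, 1199 and 1265 in iEOS and 1296, 1218 and 1111 in rEOS, with no overlap. It rose by 1.90 ± 0.30 in iEOS (adjusted p = 0.00180) and by 1.55 ± 0.30 in rEOS (adjusted p = 0.00566). Gadd45a, a growth arrest and DNA damage gene, rose by 2.33 ± 0.49 (adjusted p = 0.00682) and 2.42 ± 0.49 (adjusted p = 0.00679). Eda2r, a receptor of the TNF receptor family, went from at most 5.73 in naive to 41.8 to 119.6 in iEOS and 12.6 to 50.6 in rEOS, and Tnfrsf23, a decoy receptor for TRAIL, rose by 2.75 ± 0.65 and 2.86 ± 0.65 (adjusted p = 0.0117 and 0.0119). Ephx1, a detoxifying epoxide hydrolase, fell by 1.32 ± 0.36 in iEOS (adjusted p = 0.0201) and by 1.73 ± 0.36 in rEOS (adjusted p = 0.00783). Ei24 (-1.18, adjusted p = 0.0342) and Sesn2 (-2.35, adjusted p = 0.0464), a sestrin of the stress response, were called lower in iEOS, and Zmat3 (-1.20, adjusted p = 0.0330) and Aen (-1.44, adjusted p = 0.0478) in rEOS. The Sesn2 value was 5.48 in iEOS library 1 and 61.4 and 90.1 in the other 2. After the trend was removed 9 of 33 were higher and 2 lower in iEOS, where 22.9% of all genes were called. In rEOS, where 19.6% were called, 7 were higher and 2 lower. Btg2, Gadd45a, Eda2r and Tnfrsf23 were still higher in both. The lower genes were then Zmat3 and Trp53inp1 in each comparison, and the lower calls of Ephx1 (adjusted p = 0.612 in iEOS and 0.0702 in rEOS), Ei24 (0.196), Sesn2 (0.145) and Aen (0.106) all ended. The counts also moved with single libraries: in iEOS from 5 higher and 1 lower without rEOS 1 or rEOS 3, and 7 and 0 without naive 3, to 8 and 6 without iEOS 2, and in rEOS from 3 and 1 without rEOS 1 or rEOS 3 to 8 and 4 without iEOS 1. Calls among all 13642 genes in iEOS were 3453 without rEOS 1, 3329 without rEOS 3, 2937 without naive 3 and 5101 without iEOS 2. In rEOS they were 1497 without rEOS 1, 1401 without rEOS 3 and 5167 without iEOS 1. Btg2, Gadd45a and Tnfrsf23 were called in both comparisons whichever library was left out.

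The regulators of p53 were called in both directions. Of 21 tested (medians 0.29 and 0.05), 2 were higher and 1 lower in each comparison. Over all tested genes 31.3% were called in iEOS and 22.3% in rEOS. The damage kinase gene Atr was higher in iEOS (1.55, adjusted p = 0.0361) and rEOS (1.91, adjusted p = 0.0203). Ep300, a coactivator of p53, was at 18.4 to 79.4 normalized counts in naive and 123 to 292 in iEOS, and rose there by 2.19 ± 0.53 (adjusted p = 0.0129). Mdm4, the relative of Mdm2 that also inhibits p53, was at 68.8, 33.9 and 66.0 in naive, 81.2, 146 and 147 in iEOS and 147, 141 and 156 in rEOS. It passed the test in rEOS (1.45 ± 0.41, adjusted p = 0.0293) and missed it in iEOS (1.15 ± 0.41, adjusted p = 0.0533). Ppm1d, the p53-induced phosphatase WIP1, was called lower in iEOS (-2.02, adjusted p = 0.0484), where library 1 was at 3.29 and the others at 32.2 and 16.2. Ppp1r13b, an activator of p53's apoptotic function, was called lower in rEOS (-1.39, adjusted p = 0.0480). Of these calls, that of Ep300 alone was kept in all 23 alternatives. With the GC and length trend removed Atr was at -0.083 in iEOS (adjusted p = 0.909) and 0.55 in rEOS (adjusted p = 0.431), and the calls of Mdm4 (0.38, adjusted p = 0.639), Ppm1d (-1.69, adjusted p = 0.0735) and Ppp1r13b (-0.93, adjusted p = 0.286) ended as well. Ep300 was then higher and Cop1 lower in iEOS, and Cop1 was the 1 gene called in rEOS. Of all genes 22.9% in iEOS and 19.6% in rEOS were called with the trend removed. The number of regulators higher in rEOS went to 0 when any 1 of the rEOS libraries was left out and to 1 without any 1 of the naive libraries, and the number lower there went to 3 without iEOS library 1. The number higher in iEOS went to 1 when iEOS library 3 or any 1 of the naive or rEOS libraries was left out. The number lower in iEOS went to 2 without iEOS library 2, and to 0 when any other library was left out. Over all 13642 genes, rEOS calls were 1401 to 2133 without 1 rEOS library, 1939 to 2269 without 1 naive library and 5167 without iEOS 1. In iEOS all-gene calls ran from 2770 without naive 1 to 5101 without iEOS 2.

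None of the 6 other CDK inhibitors tested was called in either comparison by limma, edgeR or DESeq2 (medians -0.17 and -0.22). Limma called 31.3% of all tested genes in iEOS and 22.3% in rEOS. Of the 6 inhibitors, 0 had an unadjusted p under 0.05 with limma in either comparison. Over all 13642 tested genes 6150 did in iEOS and 5023 in rEOS. The 2 with the highest mean were Hexim1, an inhibitor of the elongation kinase CDK9 (0.39 and 0.02, adjusted p = 0.331 and 0.973), and Cdkn2c, the p18INK4c gene (-0.93 and -0.63, adjusted p = 0.281 and 0.509). Cdkn2c was at 60.3 in iEOS library 1, and at 355 and 443 in the other 2.

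The kinases, cyclins and RB proteins that these inhibitors act on held several large differences. Of 25 tested (medians 0.20 and -0.31), 6 were higher and 7 lower in iEOS, where 31.3% of all tested genes were called. In rEOS 3 were higher and 3 lower, where 22.3% of all were called. Without iEOS library 1 the counts were 3 and 6 in iEOS and 5 and 9 in rEOS, and with the 2 groups alone they were 3 and 2 in iEOS and 3 and 9 in rEOS. Leaving out any other library gave 3 to 6 higher and 2 to 8 lower in iEOS (2 lower without naive 1 or naive 3), and 2 or 3 of each in rEOS. Over all 13642 tested genes, 4049 were called in iEOS and 5167 in rEOS without iEOS 1. With the 2 groups alone 2509 and 4808 were called, and without any other library 2770 to 5101 and 1401 to 3180. Cdk6, a kinase that the INK4 proteins block, was at 37.9, 49.5 and 49.3 normalized counts in naive, 593, 449 and 292 in iEOS and 373, 324 and 457 in rEOS. It rose by 3.21 ± 0.34 in iEOS (adjusted p = 0.000311) and by 3.05 ± 0.34 in rEOS (adjusted p = 0.000556). Its relative Cdk4, blocked by the same proteins, was at 3231, 3842 and 2592 in naive, 294, 1641 and 1472 in iEOS and 1522, 1203 and 1243 in rEOS, and was called lower in iEOS (-1.83, adjusted p = 0.0288). The Cdk4 call ended with the trend removed (-0.73, adjusted p = 0.141) and without any 1 of the naive libraries, and its exons share 641 bases with those of the antisense gene Tspan31, at 84.8 to 193. Cdk2, the kinase that p21 and p27 block, was at 3348, 2767 and 2528 in naive, 161, 326 and 357 in iEOS and 232, 336 and 313 in rEOS. It fell by 3.42 ± 0.34 (adjusted p = 0.000268) in iEOS, and the rEOS difference was -3.30 ± 0.34 (adjusted p = 0.000420).

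The Cdk2 result lies beside a pigment gene. Cdk2 (chr10:128697939-128705031, minus strand) shares 34 exonic bases with the oppositely transcribed melanosome gene Pmel (chr10:128704195-128720238), which was at 11243, 20329.7 and 14625 normalized counts in naive and at most 69.9 in the other groups. Part of the Cdk2 counts could not be told apart from those of Pmel without knowing the strand setting. Cyclin D2, from Ccnd2, the partner of CDK4 and CDK6 in many blood cells, fell by 1.87 ± 0.25 in iEOS (adjusted p = 0.000763) and by 1.34 ± 0.25 in rEOS (adjusted p = 0.00436), whereas Ccnd1 had the values given above. Rb1, which encodes the retinoblastoma protein that CDK4 and CDK6 phosphorylate, was at 2.29, 5.21 and 15.9 in naive and 47.7 to 91.4 in the other groups, a rise of 3.12 ± 0.62 and 3.41 ± 0.62 (adjusted p = 0.00553 and 0.00432). The exons of Rb1 overlap those of 2 antisense genes, Rcbtb2 (488 shared bases), at 145 to 190 in naive and 20.8 to 225 in the other groups, and Lpar6 (408 shared bases), at 5.73 to 20.8 and 27.3 to 145. The repressor E2F genes E2f7 (2.35, adjusted p = 0.0140, in iEOS) and E2f8 (2.62 and 2.61, adjusted p = 0.0385 and 0.0486) were higher, and the phosphatase gene Cdc25a, which activates CDK2, was lower (-1.51 and -1.41, adjusted p = 0.0290 and 0.0467). The exons of E2f8 share 610 bases with those of the antisense gene Gm2788, at 0 in naive, 6.56 to 29.6 in iEOS and 1.26 to 6.98 in rEOS. Cdk6, Rb1, E2f8, Cdk2, Ccnd2 and Cdc25a were called in the same direction in both comparisons after the trend was removed. The calls of Cdk6, Rb1, Cdk2 and Ccnd2 were kept in all 23 alternatives of both comparisons, whereas those of E2f8 and Cdc25a in rEOS were each kept in 11.

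Around Bax, several genes of the BCL2 family were called. The median differences of the 16 tested were 0.09 and 0.44, beside -0.11 and -0.02 over all tested genes. Of these 16, 5 were higher and 1 lower in iEOS, where 31.3% of all tested genes were called. In rEOS 4 were higher and 1 lower, where 22.3% of all were called. These counts moved with single libraries: in iEOS they were 4 and 4 without iEOS 2, 1 and 1 without naive 3, and between 2 and 4 higher with at most 1 lower without any other library, and in rEOS they ran from 2 higher (without any of naive 1, naive 3, rEOS 2 and rEOS 3) to 6 (without iEOS 1), with at most 1 lower. Over all 13642 genes, 5101 were called in iEOS without iEOS 2 and 2937 without naive 3. In rEOS 1401 to 2133 were called without 1 of those naive and rEOS libraries, and 5167 without iEOS 1. Mcl1, which holds Bax-type proteins in check, was at 1405, 1162 and 1265 normalized counts in naive, 2213, 2522 and 2386 in iEOS and 2295, 4546 and 2715 in rEOS, and rose by 0.90 ± 0.29 (adjusted p = 0.0384) and 1.26 ± 0.29 (adjusted p = 0.0123). Bcl2, another protective member, rose in iEOS (1.08, adjusted p = 0.0334), and Bcl2l11, which encodes the death-promoting BIM, rose in both (1.02 and 1.23, adjusted p = 0.0416 and 0.0258). Bcl2a1a rose by 2.07 and 2.59 (adjusted p = 0.0132 and 0.00607) and Bcl2a1b by 2.24 and 2.30 (adjusted p = 0.0235 and 0.0264), but these near-identical copies share reads and their separate values are uncertain. In rEOS library 2, which had the highest macrophage marker sum, Bcl2a1a was at 1139 and Bcl2a1b at 502, above the other rEOS libraries, and the part of those cells was not tested. Bcl2l13 fell by 1.33 and 1.38 (adjusted p = 0.0179 and 0.0190). It shares 628 exonic bases with the antisense gene Bid, at 57.3 to 88.5 in naive and 49.5 to 80.2 in the other groups. With the trend removed Bcl2a1a, Bcl2a1b and Mcl1 were still called higher and Bcl2l13 lower in both comparisons, while the calls of Bcl2 (0.23, adjusted p = 0.585, in iEOS) and Bcl2l11 (0.75 and 0.98, adjusted p = 0.123 and 0.0592) ended.

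Genes of S phase and mitosis went both ways. Of 30 tested (medians -0.37 and -0.69), 4 were higher and 9 lower in iEOS, where 31.3% of all tested genes were called. In rEOS 2 were higher and 9 lower, where 22.3% of all were called. Mki67, the Ki-67 proliferation marker, rose by 1.67 ± 0.33 (adjusted p = 0.00508) and 1.65 ± 0.33 (adjusted p = 0.00640), and Top2a, a mitotic topoisomerase, by 1.20 ± 0.27 (adjusted p = 0.00950) and 0.96 ± 0.27 (adjusted p = 0.0287). Mcm2, a subunit of the replicative helicase, was at 1053, 1435 and 1067 normalized counts in naive and at 168 to 268 in the other 6 libraries, and fell by 2.37 ± 0.29 (adjusted p = 0.000535) and 2.40 ± 0.29 (adjusted p = 0.000728). Rrm2, the ribonucleotide reductase subunit of S phase (-1.42 and -1.50, adjusted p = 0.00765 and 0.00706), Mcm7 (-1.63 and -1.25, adjusted p = 0.00741 and 0.0275) and the licensing factor gene Cdt1 (-1.48 and -1.86, adjusted p = 0.0174 and 0.00780) were lower as well. Mcm7 shares 64 exonic bases with the antisense gene Cops6, at 632 to 1132 in naive and 231 to 583 in the other groups. It shares 321 with the antisense gene Ap4m1, at 20.9 to 112 in naive and 14.5 to 46.1 in the other groups. After the trend with GC content was removed, none was higher and 6 were lower in each comparison, Mcm2 and Rrm2 among them. Of all genes 22.9% in iEOS and 19.6% in rEOS were then called. The calls of Mki67 and Top2a ended, and so did those of Mcm7 (adjusted p = 0.0820 and 0.0973) and Cdt1 (-0.022 in iEOS, adjusted p = 0.978, and -1.10 in rEOS, adjusted p = 0.121). With TMM scaling the count lower in rEOS was 3 in place of 9, and with edgeR it was also 3. It was 3 without rEOS 1 or rEOS 3, 4 without any 1 of the naive libraries and 14 without iEOS 1, and in iEOS it was 6 without naive 2. Over all genes, 1402 were lower in rEOS in the main fit, 1061 with TMM and 1038 with edgeR. The all-gene count was 681 without rEOS 1, 650 without rEOS 3, 826 to 922 without 1 naive library and 2760 without iEOS 1. In iEOS 2267 of all genes were lower in the main fit and 1336 without naive 2.

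The polycomb proteins that are known to silence the INK4 locus were examined because Cdkn2a was near 0. Of 16 tested (medians -0.58 and 0.14), 2 were higher and 1 lower in iEOS, and limma called 0 in rEOS. In rEOS 3 of the 16 had an unadjusted p under 0.05, beside 5023 of all 13642 tested genes. Over all tested genes 31.3% were called in iEOS and 22.3% in rEOS. Bmi1, the classical repressor of Cdkn2a, was at 88.3, 41.7 and 136 normalized counts in naive, 394, 188 and 248 in iEOS and 163, 169 and 214 in rEOS, and rose by 1.72 ± 0.46 in iEOS (adjusted p = 0.0185). Rnf2, its catalytic partner, was called higher in iEOS (1.62, adjusted p = 0.0388), and Cbx8 lower (-3.76 ± 1.05, adjusted p = 0.0225), with 1 read in iEOS library 1 and the others at 65.0 and 41.8. With the trend removed Cbx8 was the 1 gene of this list still called, in iEOS, while the calls of Bmi1 (adjusted p = 0.267) and Rnf2 (0.392) ended. Of all genes 22.9% in iEOS and 19.6% in rEOS were then called. Without naive library 2 no gene of the list was called in iEOS, without naive 1 Cbx8 was not called, and without iEOS 1 there were 1 higher and 4 lower in rEOS. Over all 13642 genes, 3014 were called in iEOS without naive 2. In rEOS 2407 were higher and 2760 lower without iEOS 1.

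**Figure D5:**
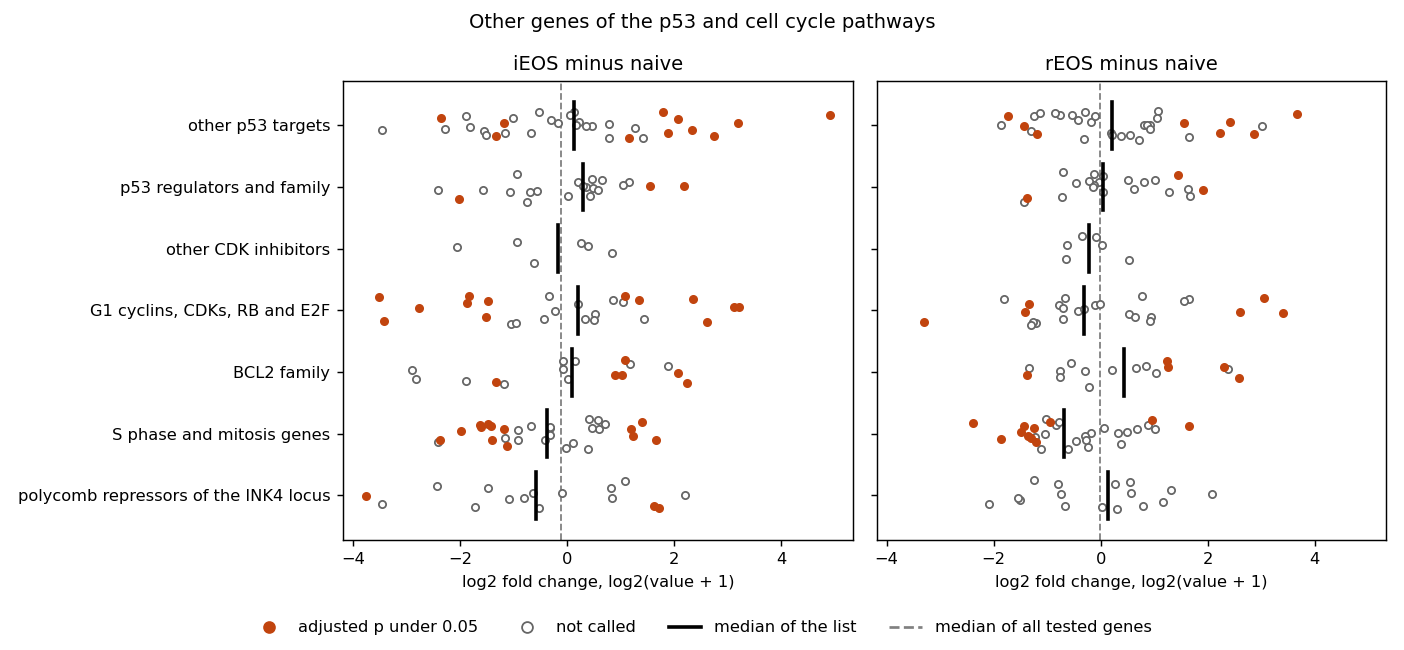
Log2 fold change (horizontal axis) of each tested gene in 7 lists of p53, cell cycle and apoptosis genes, in iEOS and rEOS against naive. Filled points were called at an adjusted p under 0.05, bars are list medians and the dashed line is the median of all tested genes; calls lie on both sides of 0 in most lists, and the other CDK inhibitors have none.

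Over the 9 libraries, the tested genes whose log2 values most resembled those of Trp53 were Ints1, Tmem97 and Smarcd1 (Pearson r = 0.976, 0.974 and 0.973). Tmem97 was at 442 to 938 normalized counts in naive and 45.0 to 168 in the other libraries. Those nearest to Cdkn1a were Map3k15, Nsl1 and Hook2 (r = 0.963, 0.938 and 0.935), all at low values, and those nearest to Ccnd1 were Capn2, Etv4 and Plec (r = 0.981, 0.971 and 0.969). Like Ccnd1, Capn2 and Plec were lower in iEOS library 1 (191 and 103) than in any other library, and Etv4 had 1 read there. These correlations describe libraries that share depth, base composition and group differences, and carry no test.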

How the data were processed

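RNA was measured in 9 libraries, 3 per group, as described above. The submitters' processing notes name TopHat2 2.1.0 and the GRCm38 build, HTSeq for counting, and DESeq2 1.10.0 for normalization. The deposited values are a signal that the authors made by dividing counts per gene by a size factor for each library. Dividing by the smallest step gave whole reads for 100% of values up to 2000 reads, within 0.05 read, and these reads give the depth. Whether molecular identifiers were counted is not given in the sources used here, so intervals cover counting error only. Of 54670 entries, 63 with a date for a name, 116 exact duplicates and 42 with another's name and values were left out.

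Groups were compared with limma 3.58.1 (R 4.3.3, two-sided, variance trend) on log2(value + 1), a scale that understates changes of low genes, in 1 fit of all 9 libraries. Genes with a mean of at least 5 entered, and p-values were adjusted by Benjamini-Hochberg over all 13642, at 0.05. The p-values measure the spread between pools. Members, lists and tests were chosen with earlier results of these data known. Named genes are all 10 members and, per list and naive comparison, up to 3 called genes per direction by adjusted p, or else the 2 with the highest mean. The 3 genes nearest in pattern to Trp53, Cdkn1a and Ccnd1 were added. Genes named beyond this rule were chosen after their values were seen. The alternatives were count tests of the recovered reads (edgeR 4.0.16, DESeq2 1.42.0), other pseudocounts (0.5 and 5), filters (none and 20), scalings and library sets, and, added after seeing the data, removal of the GC content and length trend. The fit was also run on simulated data. These held no trend with GC content and no library set apart from its group, so they cannot show how such features move the calls. Pairs of libraries within groups differed by a chi-square of 16.7 to 143 per degree of freedom, so none repeats another. Positions, GC content and lengths are from GENCODE M21 and promoters from RefSeq. Figures were drawn with matplotlib 3.10.9, and exact tests run with scipy 1.17.1.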

Additional observations from a re-analysis of the deposited data

How the results depend on the processing

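Most results kept their direction and side of the threshold, a tally that includes differences not called in the main fit. Mdm2 kept its call in both naive comparisons under all 23 alternatives. Of the other member calls, both in iEOS, that of Bax was kept in 21 and that of Trp53 in 7. Leaving out 1 library at a time gave 2770 to 5101 called genes in iEOS against naive (lowest without naive library 1) and 1401 to 5167 in rEOS against naive, with 1401 without rEOS 3, 1497 without rEOS 1, 1939 without naive 1 and 5167 without iEOS 1. Members called then ran from 1 (without naive 2) to 4 in iEOS and from 1 to 6 (without iEOS 1) in rEOS. Fitting only the 2 groups compared gave 2509 genes in iEOS, and 4808 genes and 5 members in rEOS. Leaving out iEOS 1 and rEOS 2 together gave 4623 genes and 5 members in rEOS. DESeq2 called 4 members in iEOS, beside 4964 genes, and 2 members in rEOS (Mdm2 and Bax), beside 4018. It called 6 genes between iEOS and rEOS. Removal of the GC and length trend gave 4 members in iEOS and 3 in rEOS, beside 3127 and 2672 genes. Leaving out iEOS 1, or fitting 2 groups alone, changed no rEOS or naive value. In rEOS against naive only the estimate of spread and the libraries behind it then differed. The cause of the other shifts, and of the spread that iEOS 1 brought, was not tested.

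Calls higher and lower were 1999 and 2267 in iEOS, and 2141 and 1613 with equal library totals. In rEOS they were 1634 and 1402, 1981 and 1061 with TMM, and 2007 and 897 with equal totals. The median over all genes was -0.11 and -0.02 as deposited, 0.06 and 0.17 with TMM, and 0.02 and 0.23 with equal totals.

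Signs reversed as follows. With the trend removed, iEOS gave Trp53 0.046, Cdkn1a 0.67, Ccng1 -0.38, Atr -0.083, Cdkn2c 0.58 and Cenpe -0.15, rEOS gave Cdkn1a 0.71, Ccng1 -0.49, Phlda3 0.17, Cdkn2c 0.16 and Phc2 0.026, and iEOS against rEOS gave Trp53 0.32. Cdkn1a in rEOS was 0.15 with TMM, 0.21 with equal totals, 0.22 with quantile normalization, 0.16 with edgeR and 0.051 with DESeq2, and ran from -0.16 to 0.089 over the libraries left out, highest without rEOS 1. Hexim1 in rEOS ran from -0.16 (without naive 2) to 0.17, was below 0 without rEOS 2 or rEOS 3 as well, and was -0.024 without iEOS 1 and rEOS 2 together. Between iEOS and rEOS, leaving out 1 library gave Trp53 from -0.16 to 0.18, Cdkn1b from -0.39 to 0.62, Ccnd1 from -0.78 to 0.029 and Phlda3 from -1.96 to 0.47, each with its sign turned without iEOS 1. Cdkn1b also turned without rEOS 1 and Trp53 without rEOS 3. DESeq2 gave Trp53 0.012, and leaving out iEOS 1 and rEOS 2 gave Trp53 0.15, Cdkn1b -0.18, Bax 0.086 and Phlda3 0.20.

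With the replicate number as a block, 4317, 3091 and 0 genes and 3, 1 and 0 members were called. Deviations of same-numbered libraries correlated at -0.03 to 0.06 for pairs with a naive library and at 0.07 to 0.14 for iEOS with rEOS. Differently numbered iEOS and rEOS libraries were at -0.16 to -0.01. No label says that the numbers mark shared animals, so they were not taken to pair the samples. Each iEOS and rEOS library correlated best with its own number, a hint from the data only. At this depth a 2-fold change of a gene such as Cdkn2a, with 1 to 6 reads per group, is not detectable.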
